A study of Homo sapiens with 8 samples.

Results

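Long intergenic noncoding RNA (LINC) genes were examined in human multiple myeloma cells, as every gene of the array whose only platform symbol is LINC followed by digits. The table holds 244 such transcript clusters, which stand for 206 LINC genes out of 18417 genes with a single platform symbol. Where a gene had more than 1 cluster (11 LINC genes), the cluster with the highest mean signal was used. Total RNA was measured on 8 one-colour Affymetrix arrays, 1 for each of 8 conditions. U266/LR7, a melphalan-resistant derivative, was set beside its parent U266/s, each with and without 100 µM melphalan, a DNA-alkylating drug of myeloma therapy. Each of these 4 states was measured once with 100 nM of inhibitors directed at miR-221 and miR-222, which are microRNAs, and once without them, 12 h after treatment. Arrays without inhibitors are described as having received a negative control oligonucleotide, but the transfection label of the melphalan-alone arrays reads "none". If that label is right, melphalan differences on arrays without inhibitors also hold the absence of transfection. Inhibitor differences in the states with melphalan would then also hold the transfection itself.

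LINC genes are named for RNA polymerase II transcripts from DNA between protein-coding genes, and their transcripts are capped and often spliced and polyadenylated. Most are present at low copy number, many stay on chromatin, and the nuclear exosome, the main 3′-to-5′ RNA-degrading complex of the nucleus, removes many of them soon after synthesis. For most members no function is firmly established, and none is stated here unless it is. Values are RMA signals on a log2 scale, so a difference of 1 means a ratio of 2. The fold changes below come from limma fits across all 18417 genes, in which the array with inhibitors and the array without them stood in as the pair of each state. No condition was replicated and no separate cultures are labelled. The p-values therefore reflect how far these arrays differ among themselves, a spread that may be technical.

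Of the 206 platform symbols, 201 matched a current LINC gene by gene ID. LINC00205 and LINC00596 are in the reference under another ID. The other 3 no longer name an intergenic noncoding gene there. LINC00341 is now listed as a synonym of SYNE3, a protein-coding gene of the nuclear envelope, LINC00889 as a synonym of FGF13, and LINC01296 as a synonym of DUXAP9, a transcribed pseudogene with near-identical copies whose signal may be shared. In the current annotation 20 of the 201 matched genes overlap a protein-coding gene, 6 of them on the same strand, so that signal may be shared. Of the 11 plasma cell markers measured, JCHAIN had the highest mean signal, 13.3, and CD27 the lowest, 6.13. Of the 5 mature B cell markers measured, CIITA had the highest, 7.85, and MS4A1, which encodes CD20, the lowest, 4.39. Signals of different probes are not amounts of RNA, so these levels do not rank the markers by abundance. Without melphalan 4 of the 11 plasma cell markers were higher in U266/LR7 than in U266/s and 2 were lower. The shares of all genes were 16.9% and 17.8%.

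The LINC genes were dim, as a group. Their median signal lay between 5.68 and 5.98 across the 8 arrays, against 7.31 to 7.38 for all genes tested. With all genes ranked by mean signal into 4 classes of equal size, 107 LINC genes fell in class 1, the dimmest, 69 in class 2, 28 in class 3 and 2 in class 4, the brightest. The 2 brightest were LINC00221, with a mean of 10.18, and LINC02363, with 9.11. LINC00221 lies among immunoglobulin heavy chain variable segments in the reference, flanked by the pseudogene segments IGHVIII-44 and IGHVIV-44-1. LINC01296, LINC02939, LINC00937, LINC00341, LINC01963 and LINC01783 followed. The files hold no background call, so which dim LINC genes were detected is unknown.

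In U266/s, melphalan was accompanied by higher signals of 56 LINC genes and lower signals of 2 (limma, Benjamini-Hochberg adjusted p under 0.05). Those higher were 27.2% of the LINC genes, against a background of 18.4% of all genes. Those lower were 0.971%, against a background of 24.9%. The LINC genes had a median log2 difference of 0.25, and all genes had 0.08. The 56 higher genes differed by 0.36 to 1.93, with a median of 0.61. Both melphalan arrays lay above both arrays without the drug in 118 of the 206 LINC genes (57.3%), the 56 among them, and in 40.0% of all genes.

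LINC00665 had the highest melphalan difference among the LINC genes. In U266/s its signal was 7.59 with melphalan alone and 7.64 with melphalan plus inhibitors, against 5.80 in the control and 5.56 with inhibitors alone. The log2 difference was 1.93 ± 0.15 (SE, limma adjusted p = 4.73e-06). LINC00221 had 10.45 and 10.23 on the U266/s melphalan arrays, against 8.85 and 8.60 on those without melphalan, a difference of 1.62 ± 0.13 (SE, limma adjusted p = 5.90e-06). In both genes the 2 melphalan arrays lay close together and well above both arrays without the drug, with no overlap.

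LINC01296 had 9.57 and 9.52 with melphalan in U266/s, against 8.34 and 8.23 without it, a difference of 1.26 ± 0.16 (SE, limma adjusted p = 7.37e-05). LINC00115 had 8.58 and 8.30 with melphalan in U266/s, against 7.24 and 7.44 without it (1.10 ± 0.15, SE). LINC01465 had 7.95 and 8.03 with melphalan in U266/s, against 6.94 and 7.03 without it (1.01 ± 0.14, SE). In all 3 the pairs did not overlap. The next were LINC00470, LINC00965 and LINC00528, with log2 differences of 0.88, 0.86 and 0.85. The platform lists 26 clusters for LINC00965, of which 13 had values of their own. Over these clusters the difference in U266/s ran from 0.86 to 1.49, and the cluster used, the brightest, gave the smallest.

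The 2 LINC genes called lower were LINC00525 and LINC00469. LINC00525 had 6.01 and 6.12 on the U266/s melphalan arrays, against 6.77 and 6.75 on those without melphalan, and fell by 0.70 on the log2 scale (limma adjusted p = 0.00352). LINC00469 had 6.08 and 5.64 with melphalan, against 6.27 and 6.25 without it, and fell by 0.40 (limma adjusted p = 0.0477). In both genes the pairs did not overlap, as in 4.9% of LINC genes and 33.4% of all genes in that direction.

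**Figure D1:**
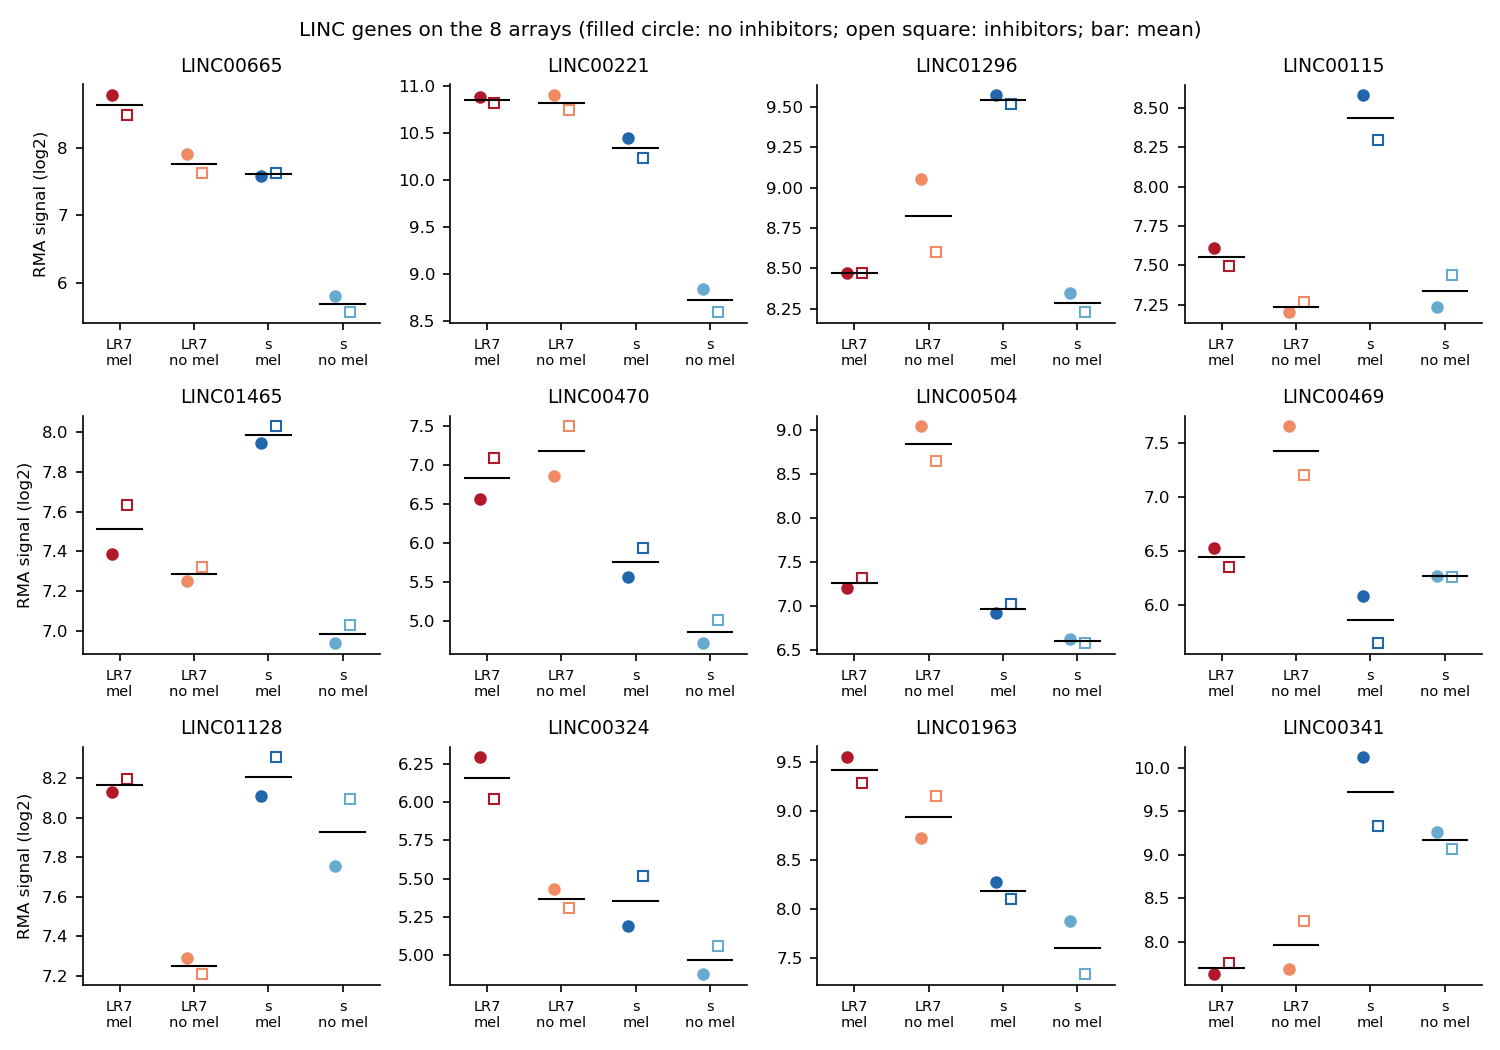
RMA signal (log2, y axes that differ between panels and do not start at 0) of 12 LINC genes on the 8 arrays, by line (LR7, U266/LR7; s, U266/s) and melphalan (mel). Filled circles are arrays without inhibitors, open squares arrays with them, and bars the mean of each pair; LINC00665 was lowest on the U266/s arrays without melphalan, at 5.80 and 5.56, and LINC00504 was highest on the U266/LR7 arrays without melphalan, at 9.04 and 8.64.

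Promoter windows, from 250 bases before to 50 after the annotated start, were taken from RefSeq on GRCh38.p14, where 146 LINC genes have one. Those of 5 LINC genes that rose with melphalan are shown because their base composition and motifs differ widely. LINC00665, LINC00221 and LINC01465 were among the 8 largest rises in U266/s, LINC00665 and LINC01599 rose in both lines, and LINC00324 rose in U266/LR7. Capitals mark matches, on either strand, to any of 6 motifs. The GC box, GGGCGG, binds SP1 family factors and reads CCGCCC on the other strand. The CCAAT box, bound by NF-Y, has the letters of its name and reads ATTGG on the other strand. The TATA box was searched as TATAAA. The AP-1 motif was searched as TGANTCA, and the cyclic AMP response element as TGACGTCA. The E-box was searched as CACGTG. No matches overlap in these windows.
LINC00665, chr19:36331669-36331968, minus strand: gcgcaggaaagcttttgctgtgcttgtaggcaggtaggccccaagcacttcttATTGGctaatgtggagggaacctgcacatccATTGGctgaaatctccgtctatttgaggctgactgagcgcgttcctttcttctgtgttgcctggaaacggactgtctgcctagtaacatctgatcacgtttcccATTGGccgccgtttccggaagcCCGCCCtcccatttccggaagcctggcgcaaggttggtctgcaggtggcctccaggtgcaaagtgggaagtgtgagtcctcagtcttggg
LINC00221, chr14:106482189-106482488, plus strand: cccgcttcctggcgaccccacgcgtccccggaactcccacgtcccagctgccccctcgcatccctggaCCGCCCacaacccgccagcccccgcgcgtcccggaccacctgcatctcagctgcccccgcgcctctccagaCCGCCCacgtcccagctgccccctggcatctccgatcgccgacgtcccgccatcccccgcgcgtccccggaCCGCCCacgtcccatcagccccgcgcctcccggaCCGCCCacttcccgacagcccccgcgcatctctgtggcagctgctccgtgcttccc
LINC01465, chr12:62603385-62603684, minus strand: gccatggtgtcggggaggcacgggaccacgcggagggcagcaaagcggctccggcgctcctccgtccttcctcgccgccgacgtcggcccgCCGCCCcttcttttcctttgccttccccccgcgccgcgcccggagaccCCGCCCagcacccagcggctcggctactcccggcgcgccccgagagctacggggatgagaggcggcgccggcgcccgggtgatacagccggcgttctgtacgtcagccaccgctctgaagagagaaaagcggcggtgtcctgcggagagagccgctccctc
LINC01599, chr14:50104994-50105293, minus strand: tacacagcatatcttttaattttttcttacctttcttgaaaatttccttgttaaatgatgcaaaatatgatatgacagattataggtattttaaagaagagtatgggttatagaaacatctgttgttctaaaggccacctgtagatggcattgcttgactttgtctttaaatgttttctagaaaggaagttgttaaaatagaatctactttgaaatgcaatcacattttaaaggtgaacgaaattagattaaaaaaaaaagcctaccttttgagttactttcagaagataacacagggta
LINC00324, chr17:8223994-8224293, minus strand: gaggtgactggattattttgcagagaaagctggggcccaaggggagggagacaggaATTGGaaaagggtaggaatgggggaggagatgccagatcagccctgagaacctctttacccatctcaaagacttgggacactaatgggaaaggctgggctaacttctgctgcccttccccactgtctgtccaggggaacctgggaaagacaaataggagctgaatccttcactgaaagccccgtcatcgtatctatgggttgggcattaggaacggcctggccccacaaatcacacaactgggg

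The LINC00665 window holds 3 CCAAT boxes and 1 GC box, the LINC00221 window 4 GC boxes and the LINC01465 window 2 GC boxes. The LINC00324 window holds 1 CCAAT box, and none of the 6 motifs is in the LINC01599 window. Their G and C content runs from 29.3% in LINC01599 to 75.3% in LINC00221. Across the 146 LINC promoters, a GC box was present in 28.8%, against 44.6% of all 27305 promoters and 60.0% of the 14237 promoters of measured genes. A CCAAT box was in 34.9% of LINC promoters, against 35.7% of all and 36.3% of those of measured genes. An AP-1 motif was in 7.5% of LINC promoters, against 7.8% of all and 5.6% of those of measured genes. Among the 38 promoters of LINC genes called higher in U266/s, 34.2% held a GC box and 10.5% an AP-1 motif, against 26.9% and 6.5% of the 108 that were not called. The shares also differed by signal class. A GC box was in 56.2% of the 16 LINC promoters of classes 3 and 4 and 17.1% of the 76 of class 1. An AP-1 motif was in 6.2% and 10.5% of them. The part of signal in the difference by call was not tested. Median G and C content was 54.3% over the LINC promoters, 58.3% over all promoters and 63.0% over those of measured genes. These matches are a description of the letters and not of bound factors.

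The melphalan calls in U266/s were also counted by signal class, since dim and bright genes moved differently. In class 1, 21 of 107 LINC genes were higher (19.6%), against 13.9% of all genes there, and 0 were lower by limma, against 6.73%. In class 2, 22 of 69 LINC genes were higher (31.9%), against 22.6% of all genes, and 2 were lower, against 15.0%. In class 3, 12 of 28 LINC genes were higher (42.9%), against 21.6% of all genes, and 0 were lower, against 35.3%. In class 4 LINC00221 was higher, against 15.6% of all genes, and LINC02363 was not called. All 28 LINC genes of class 3 had a difference above 0. At an unadjusted p under 0.05, 18 of them were higher (64.3%, against 26.7% of all genes of the class) and 0 lower (against 38.1%). In class 1, 30 were higher at that p (28.0%, against 21.3%) and 0 lower (against 7.99%). Counted in either direction the LINC shares, 64.3% in class 3 and 28.0% in class 1, were close to the 64.8% and 29.3% of all genes. The median log2 difference in class 3 was 0.39 for LINC genes and −0.08 for all genes. In class 1 the medians were 0.16 for LINC genes and 0.15 for all genes. Of the 431 other long noncoding RNA genes of the table, 136 were higher and 17 lower, with a median of 0.27, and in class 3, 38 of 66 were higher.

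The U266/s melphalan arrays also differed from the others in spread. Their quartile range over all clusters was 3.25 and 3.34, against 3.58 to 3.71 on the other 6 arrays. The part of this narrower range in the LINC calls was examined only by scaling the arrays in other ways. With quantile normalization 54 LINC genes were higher (26.2%, against 23.8% of all genes) and 2 lower (0.971%, against 20.7%). With cyclic loess normalization 34 were higher (16.5%, the same as the 16.5% of all genes) and 8 lower (3.88%, against 21.9%). Over all classes together, the larger share of higher calls among LINC genes thus shrank with quantile normalization and was absent with cyclic loess. The smaller share of lower calls was present in both. Within classes 1, 2 and 3 the LINC share of higher calls stayed above that of all genes under both scalings. With cyclic loess it was 8.4%, 11.6% and 57.1%, against 4.6%, 8.2% and 25.3%. Cyclic loess moved the higher calls to 81.0% of the LINC calls, against 96.6% as deposited, and 30 of the 56 calls were kept. In class 3 the LINC median was 0.60 with quantile and 0.47 with cyclic loess normalization, against 0.16 and 0.02 for all genes. In class 2, 19 LINC genes were higher with quantile and 8 with cyclic loess normalization, with medians of 0.25 and 0.09, against 0.17 and 0.00 for all genes. In class 1 the LINC median was 0.05 with quantile normalization, against 0.04 for all genes. With cyclic loess it was −0.0045, against −0.0141 for all genes. Without the U266/s control array 21 were higher and 2 lower, and without the U266/s melphalan array 25 were higher and 2 lower.

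**Figure D2:**
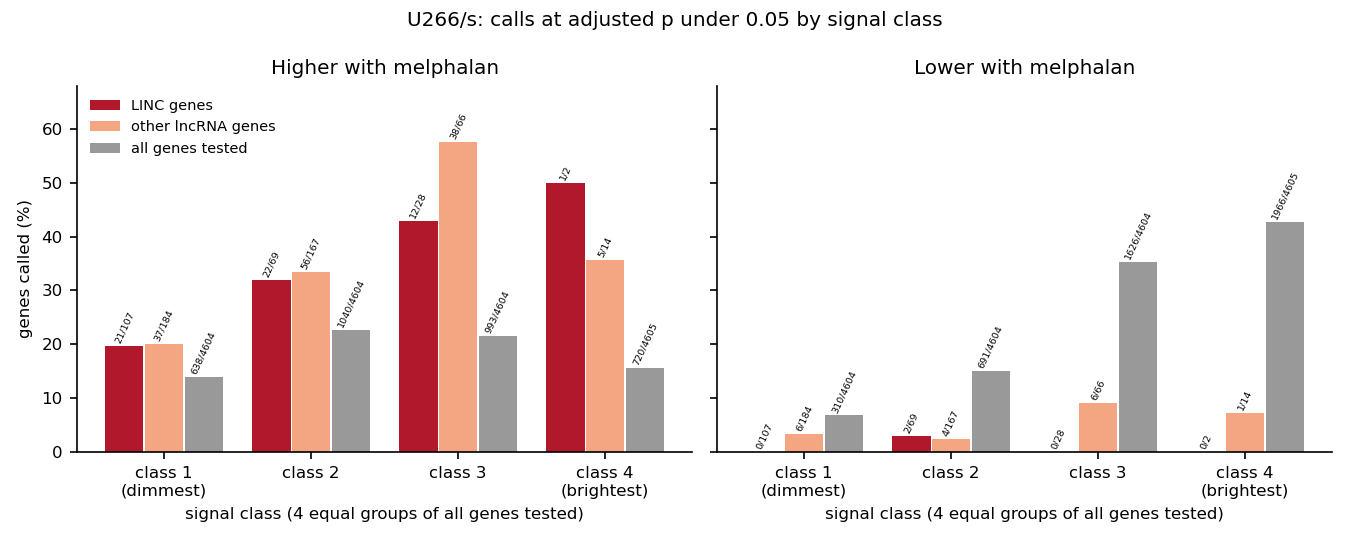
Share of genes (%, y axis from 0) called higher (left) or lower (right) with melphalan in U266/s at an adjusted p under 0.05, by signal class (4 equal groups of all genes by mean signal), for LINC genes, other long noncoding RNA genes and all genes tested; the fractions above the bars are called genes of genes. Higher calls reach 42.9% of the 28 LINC genes in class 3, against 21.6% of all genes there, and lower calls are 0 of 28 LINC genes, against 35.3%.

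In U266/LR7 few LINC genes differed with melphalan. Signals of 5 were higher (2.43%, background 3.02%) and of 3 lower (1.46%, background 3.61%), and the median log2 difference was 0.05 over LINC genes and 0.05 over all genes. LINC01128 had 8.13 and 8.20 on the U266/LR7 arrays with melphalan, against 7.29 and 7.21 on those without it, a difference of 0.92 ± 0.15 (SE, limma adjusted p = 0.00499). LINC00665 had 8.78 and 8.49 with melphalan, against 7.91 and 7.62 without it (0.87 ± 0.15, SE, limma adjusted p = 0.00550). LINC00324, which neighbours CTC1, a telomere maintenance gene, had 6.29 and 6.02 with melphalan, against 5.43 and 5.31 without it (0.79 ± 0.16, SE, limma adjusted p = 0.0152). In these 3 the pairs did not overlap, as in 26.2% of LINC genes and 33.1% of all genes in that direction. LINC01599 and LINC02893 each rose by 0.62, and the call of LINC01599 was lost in 9 of 14 alternatives, median centring and quantile and cyclic loess normalization among them. LINC01599 overlaps VCPKMT, a lysine methyltransferase gene, on the same strand.

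The drop of LINC00504 was the largest melphalan difference of either direction among LINC genes in U266/LR7. It had 7.20 and 7.32 with melphalan, against 9.04 and 8.64 without it, and fell by 1.58 on the log2 scale (limma adjusted p = 0.000317). LINC00469 had 6.53 and 6.34 with melphalan, against 7.65 and 7.20 without it, and fell by 0.99. LINC02363 had 9.06 and 8.82 with melphalan, against 10.47 and 9.33 without it, and fell by 0.96 (limma adjusted p = 0.0253). Its 2 arrays without melphalan lay farther apart than the difference itself. Leaving out the U266/LR7 melphalan array left 1 call, that of LINC00504. LINC00665 and LINC01599 were called higher in both lines, and LINC00469 lower in both, its U266/s call being lost in 7 of 14 alternatives. The share of all genes called in both lines was not counted.

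The difference between the melphalan responses of the lines, U266/LR7 minus U266/s, was called for 16 LINC genes. All 16 were negative (7.77%, background 5.99%) and 0 were positive (background 17.9%). In signal classes 1, 2 and 3 the positive background was 4.45%, 10.1% and 25.2% of all genes. The negative LINC shares there were 3.74%, 7.25% and 21.4%, against 3.87%, 5.84% and 6.8% of all genes. At an unadjusted p under 0.05, 41 were negative (19.9%, against 12.2% of all genes) and 2 positive (0.971%, against 23.6%), and up to 2 were called positive under the alternatives. LINC00504 had the largest value, −1.95 ± 0.23 (SE, limma adjusted p = 0.000237), with log2 melphalan differences of −1.58 in U266/LR7 and 0.37 in U266/s. LINC01296 had −0.35 in U266/LR7 and 1.26 in U266/s, a difference of −1.62. LINC00221 had 0.03 in U266/LR7 and 1.62 in U266/s, a difference of −1.59. LINC00470, with −0.35 and 0.88, and LINC00665, with 0.87 and 1.93, followed at −1.23 and −1.06. These 5 kept their call in every alternative run for them, 14 or 15 each, including each array left out in turn. The signal of LINC00221 in U266/LR7 was already at 10.90 and 10.74 without melphalan, above the 10.45 and 10.23 it had in U266/s with the drug. The U266/s melphalan arrays of narrower spread enter this difference, and their part was not tested. The count of 16 was 31 with median centring, 20 with quantile normalization (13 of the 16 kept) and 12 with cyclic loess normalization (9 kept). It was 6 without the U266/s control array, 7 without the U266/LR7 melphalan array, 9 without the U266/s melphalan array and 25 without the U266/LR7 array with inhibitors alone.

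**Figure D3:**
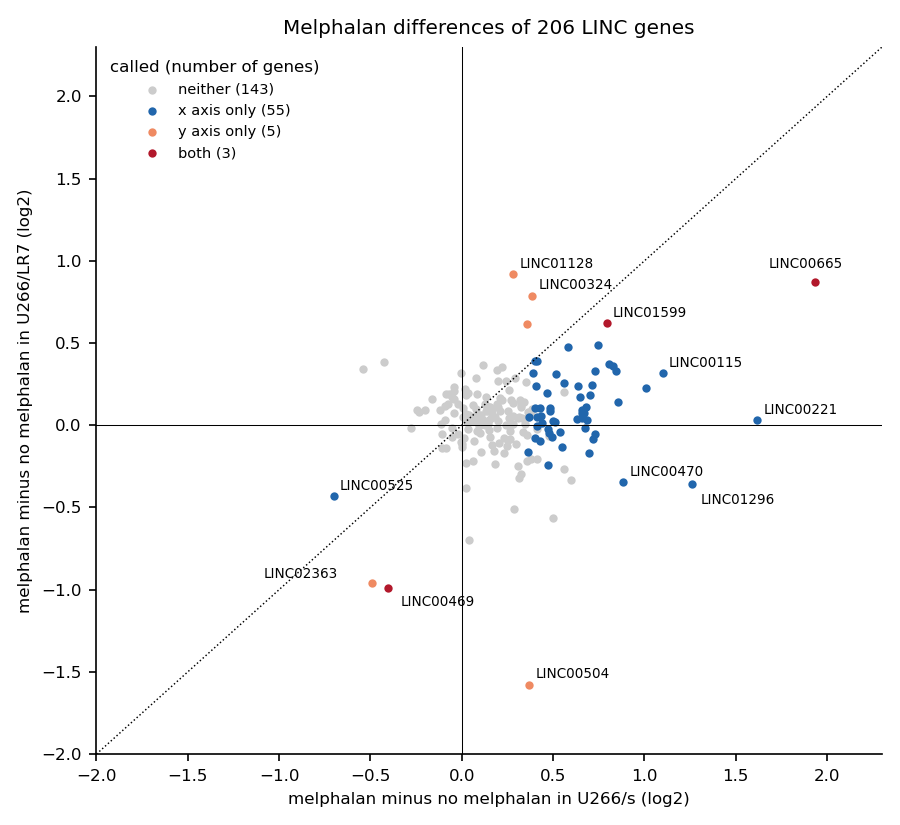
Melphalan minus no melphalan (log2) of each of the 206 LINC genes in U266/LR7 (y axis) against U266/s (x axis); colours give the line in which the gene was called and the dotted line marks equal differences. Points called only in U266/s (55 genes) lie mostly right of 0 and near 0 on the y axis, and LINC00504 lies at −1.58 in U266/LR7.

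Without melphalan, 30 LINC genes were higher in U266/LR7 than in U266/s (14.6%, background 16.9%) and 12 were lower (5.83%, background 17.8%). In signal classes 1, 2 and 3 the higher shares were 2.8%, 23.2% and 32.1%, against 4.91%, 13.4% and 23.7% of all genes. The lower shares were 6.54%, 4.35% and 7.14%, against 10.2%, 15.7% and 21.7%. The median log2 difference was −0.03 over LINC genes and −0.04 over all genes. LINC00470 had 6.86 and 7.49 on the U266/LR7 pair, against 4.72 and 5.02 on the U266/s pair, a difference of 2.31 ± 0.14 (SE, limma adjusted p = 2.05e-07). LINC00504 had 9.04 and 8.64 on the U266/LR7 pair, against 6.62 and 6.57 on the U266/s pair (2.25 ± 0.16, SE). LINC00221 had 10.90 and 10.74 on the U266/LR7 pair, against 8.85 and 8.60 on the U266/s pair (2.10 ± 0.13, SE). In these 3 genes both U266/LR7 arrays lay above both U266/s arrays by more than the distance within either pair. Both lay above, by any distance, in 27.7% of LINC genes and 28.5% of all genes.

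LINC00665 had 7.91 and 7.62 in U266/LR7 without melphalan, against 5.80 and 5.56 in U266/s, a difference of 2.09 ± 0.15 (SE, limma adjusted p = 7.16e-07). It was followed by LINC01446, LINC00339, LINC01963 and LINC03129, with log2 differences of 1.40, 1.34, 1.33 and 1.20. LINC00467 had 8.99 and 8.94 on the U266/LR7 pair, against 7.85 and 7.69 on the U266/s pair. LINC00173 had 6.30 and 6.28 on the U266/LR7 pair, against 6.31 and 6.42 on the U266/s pair (limma adjusted p = 0.703), and was not called in any of the 6 comparisons.

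Lower in U266/LR7 was LINC02520, with 5.52 and 5.22, against 6.86 and 6.99 in U266/s, a difference of −1.56 ± 0.26 (SE, limma adjusted p = 0.000645). LINC00341, the symbol now under SYNE3, had 7.68 and 8.24 on the U266/LR7 pair, against 9.27 and 9.06 on the U266/s pair (−1.20 ± 0.25, SE, limma adjusted p = 0.00250). LINC02905, LINC01128, LINC02072, LINC00417, LINC01116 and LINC03043 were lower by 0.65 to 0.68 on the log2 scale and did not overlap between the lines. Both U266/LR7 arrays lay below both U266/s arrays in 27.2% of LINC genes and 34.5% of all genes. Without the U266/s array with inhibitors alone 4 LINC genes were lower, and without the U266/s control array 19 were higher.

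With melphalan on both sides, 22 LINC genes were higher in U266/LR7 (10.7%, background 27.7%) and 55 lower (26.7%, background 24.0%). With quantile normalization 25 were higher (12.1%, against 22.8% of all genes) and 37 lower (18.0%, against 24.9%). With cyclic loess normalization 29 were higher (14.1%, against 22.9%) and 29 lower (14.1%, against 21.2%). Over all classes together, the share of lower calls, above that of all genes as deposited, was thus below it under both scalings. Within classes 1 and 3 it stayed above. In class 3, 14 of 28 LINC genes were lower with quantile normalization (against 35.8% of all genes) and 42.9% with cyclic loess (against 30.3%). In class 1 the LINC share was 10.3% under both, against 8.64% and 7.3%. In class 2 it was 17.4% and 8.7%, against 28.7% and 17.6%, and in class 4, 0 of 2 were lower. The share of calls that were higher was 28.6% as deposited and 40.3% with quantile normalization. Without the U266/LR7 melphalan array 14 were higher and 22 lower, without the U266/LR7 array with melphalan and inhibitors 14 and 25, and without the U266/s melphalan array 17 and 28. The U266/s melphalan arrays of narrower spread are the U266/s side of this comparison, and their part was not tested. Called in both comparisons were 19 genes higher in U266/LR7 each time and 9 lower each time. The share of all genes called in both comparisons was not counted. LINC01963 had 9.54 and 9.28 in U266/LR7 with melphalan, against 8.27 and 8.10 in U266/s with melphalan (1.23 ± 0.20, SE). LINC00341 had 7.63 and 7.76, against 10.12 and 9.33 in U266/s (−2.03 ± 0.25, SE). LINC01296 was higher in U266/LR7 without melphalan, by 0.54, and lower with it, by 1.07 on the log2 scale. The call without melphalan was lost in 4 of 16 alternatives and that with melphalan in 1 of 16, the additive fit. That fit has a single line difference for both comparisons. The comparisons without and with melphalan use different arrays but the same fit.

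**Figure D4:**
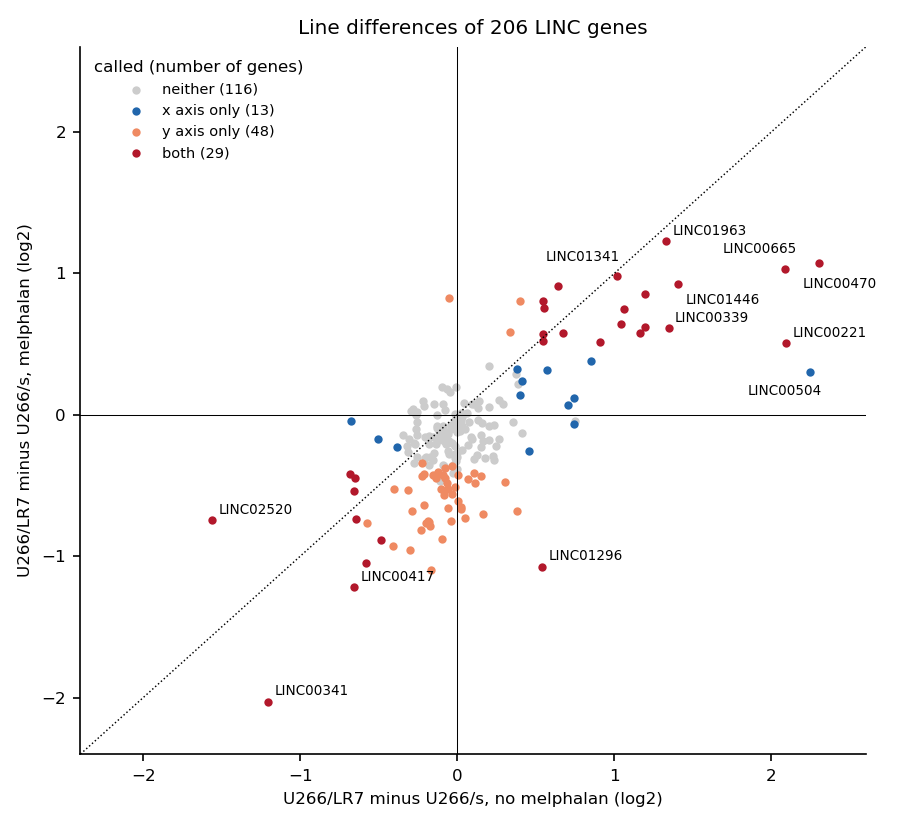
U266/LR7 minus U266/s (log2) of each LINC gene with melphalan (y axis) against without melphalan (x axis); colours give the comparison in which the gene was called, and the dotted line marks equal differences. LINC00665 and LINC00470 lie near 1 on the y axis and above 2 on the x axis, and LINC01296 is the 1 gene called in opposite directions.

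Inhibitors of miR-221 and miR-222 were the treatment with no LINC gene called. These microRNAs share the seed shown in capitals (bases 2 to 8 of RefSeq mature sequences, GRCh38.p14, chromosome X), which is why one treatment is directed at both.
hsa-miR-221-3p: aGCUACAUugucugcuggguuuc
hsa-miR-222-3p: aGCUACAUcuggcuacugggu
With limma, 0 of 206 LINC genes were higher (background 0.0271%) and 0 lower (background 0.0163%), and 12 had an unadjusted p under 0.05 (5.83%, against 6.3% of all genes). Over all genes 8 were called, and 0 to 20 under the 17 alternatives. The largest positive difference was that of LINC01356, which with inhibitors had 6.20 (U266/LR7, melphalan), 5.95 (U266/LR7), 5.96 (U266/s, melphalan) and 6.46 (U266/s), against 6.17, 5.74, 4.75 and 5.34 without inhibitors in the same states (0.64 ± 0.18, SE, limma adjusted p = 0.536). LINC00260 had, in the same order of states, 5.78, 5.78, 5.21 and 4.99 with inhibitors, against 5.34, 5.12, 4.74 and 4.57 without them (0.50 ± 0.09, SE, limma adjusted p = 0.155). LINC00260 overlaps ATP2B4, a calcium pump gene, on the same strand. LINC00470 differed by 0.46 and LINC02363 by −0.48. In the states with melphalan these differences also hold transfection, if the label of the melphalan-alone arrays is right. Both LINC01356 and LINC00260 had the higher value with inhibitors in each of the 4 states, but neither passed the test. They were picked as the largest positive differences of the 206 LINC genes. The share of genes higher in all 4 states was not counted.

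LINC genes were compared with the nearest protein-coding gene of the reference, which was measured for 169 of them. Across these pairs the U266/s melphalan differences had a Pearson correlation of −0.04, and the line differences without melphalan 0.12 (169 pairs on the same arrays, a description across genes). The values differed by distance in the current annotation. For melphalan in U266/s the correlation was 0.32 over 16 overlapping pairs, −0.54 over 22 pairs within 5 kb of each other and 0.02 over 131 pairs farther apart. For the lines without melphalan it was 0.46, 0.57 and 0.06 over the same pairs. Of the 56 LINC genes higher with melphalan in U266/s, 45 had a measured neighbour. It was called higher for 6 of these 45, lower for 15 and not called for 24. Of the 122 LINC genes not called that had a measured neighbour, 11 had a higher, 42 a lower and 69 an uncalled neighbour. Among all protein-coding genes 17.1% were higher and 26.8% lower.

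Among the pairs within 5 kb were those of LINC00665, LINC01465 and LINC00528. ZFP14, a zinc finger gene beside LINC00665, had 4.35 and 4.45 on the U266/s melphalan arrays, against 5.31 and 5.23 without melphalan, and fell by 0.87 on the log2 scale (limma adjusted p = 0.00107), where LINC00665 rose. MON2, a regulator of Golgi-to-endosome transport beside LINC01465, had 7.94 and 7.49 in U266/s with melphalan, against 9.05 and 9.06 without it, and fell by 1.35. BID, a pro-apoptotic BCL2 family gene beside LINC00528, had 10.11 and 10.24 with melphalan, against 10.75 and 10.75 without it, and fell by 0.57. In each of these 3 neighbours the arrays with and without melphalan did not overlap, as in 33.4% of all genes in that direction.

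CPEB2, which encodes a translational regulator, is the nearest protein-coding gene to LINC00504, farther than 5 kb away. In U266/LR7 it had 8.01 and 8.33 with melphalan, against 8.99 and 9.53 without it, and fell by 1.09 (limma adjusted p = 0.00499), as LINC00504 did. In U266/s it had 6.83 and 6.71 with melphalan, against 8.23 and 8.15 without it, and fell by 1.42, where LINC00504 differed by 0.37 (limma adjusted p = 0.0804). Both were higher in U266/LR7 without melphalan, CPEB2 by 1.06 and LINC00504 by 2.25.

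**Figure D5:**
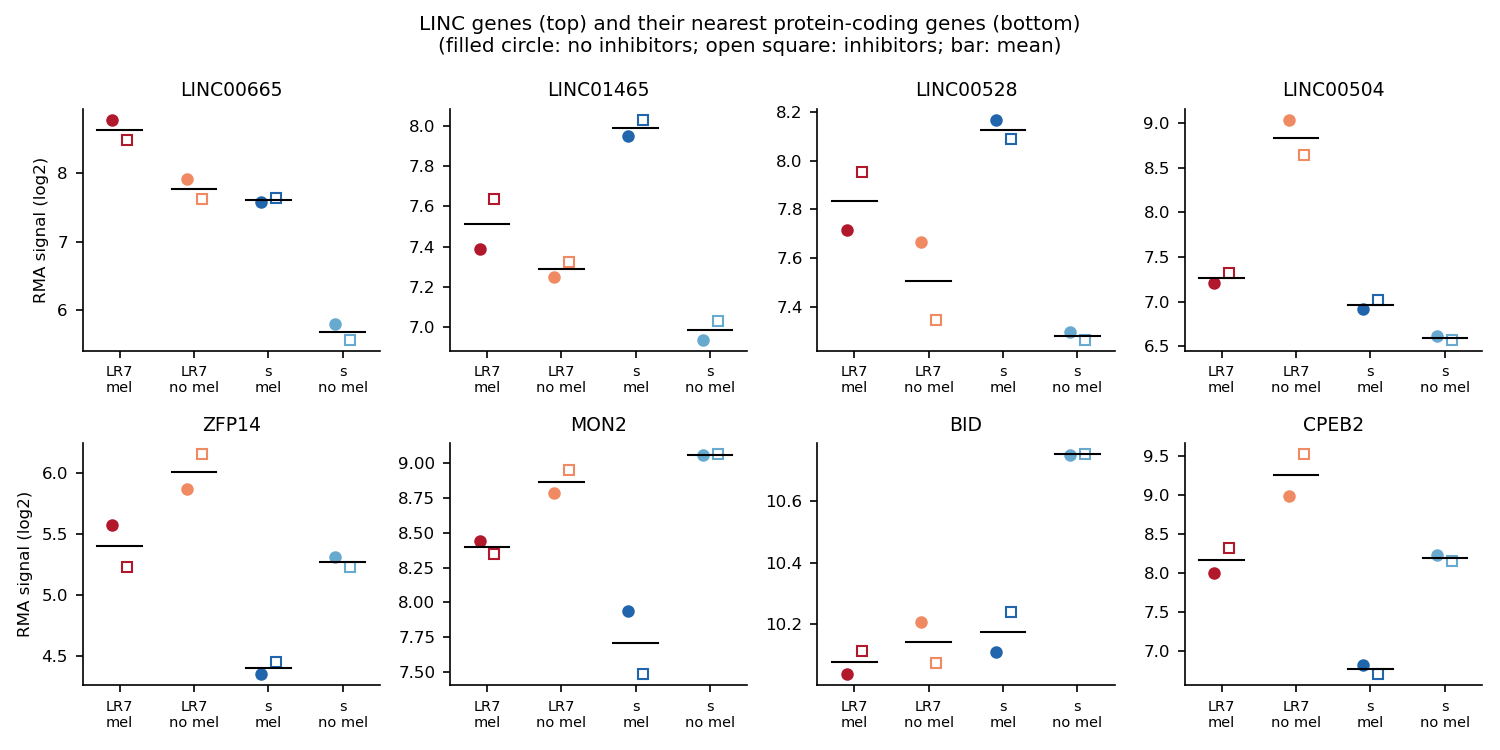
RMA signal (log2, y axes that differ between panels and do not start at 0) of 4 LINC genes (top) and their nearest protein-coding genes (bottom) on the 8 arrays; filled circles are arrays without inhibitors, open squares arrays with them, bars the mean of each pair. ZFP14, MON2 and BID are lower on the U266/s arrays with melphalan than on those without it, where LINC00665, LINC01465 and LINC00528 are higher.

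Other genes of RNA metabolism were counted beside the LINC genes, in 3 lists. Of 40 listed long noncoding RNAs outside the LINC series, 14 were measured. With melphalan in U266/s, 9 of the 14 were higher and 3 lower, against 18.4% and 24.9% of all genes. DLEU2 was lower in U266/LR7, by 0.95 on the log2 scale. TERC, the telomerase RNA, differed by 1.89, MALAT1, an abundant RNA of nuclear speckles, by 1.10, and JPX by −1.78 in U266/s. Of 23 genes of nuclear RNA decay, 1 was higher and 15 lower with melphalan in U266/s, with a median of −0.58. The helicase gene MTREX, which feeds RNAs to the exosome, fell by 1.85, TENT4B, a poly(A) polymerase that tags RNAs for it, by 1.88, and DIS3, an exosome nuclease mutated in some myelomas, by 0.73. In U266/LR7 the median over the 23 was 0.04.

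Of 30 genes of the Integrator and 3′ end formation complexes, which end transcription of short and noncoding RNAs or cleave messenger RNAs, 3 were higher and 19 lower with melphalan in U266/s, with a median of −0.66. INTS13 and INTS9, Integrator subunits, fell by 2.18 and 1.73. In U266/LR7 CSTF3 was higher, by 0.84, and the median was 0.09. The difference between the melphalan responses of the lines, U266/LR7 minus U266/s, was called positive for 11 of the 23 decay genes. It was called positive for 17 of the 30 Integrator and 3′ end genes. The share was 17.9% of all genes and 31.7% of those in signal class 4. Without melphalan, 5 decay genes were higher and 6 lower in U266/LR7 than in U266/s. Of the Integrator and 3′ end genes 5 were higher and 14 lower. The shares of all genes were 16.9% higher and 17.8% lower, and those of signal class 4 were 25.5% and 23.7%. Of all genes in signal class 4, 42.7% were lower with melphalan in U266/s.

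Of the 6 myeloid markers listed, 3 were higher with melphalan in U266/s, against 18.4% of all genes. These were CD68, CD14 and MPO, by 1.88, 1.47 and 1.20. CD14 was also higher with melphalan in U266/LR7, by 0.55 (limma adjusted p = 0.0449). The mean log2 level of the list was 6.83 to 6.94 on the U266/s arrays with melphalan, against 5.98 to 6.14 without it. LYZ had 5.31 and 4.48 on the U266/s arrays with melphalan, against 4.59 and 4.80 without it. CSF1R differed by −0.05 and ITGAM by 0.26 there, and none of LYZ, CSF1R and ITGAM was called. The RNA came in bulk from lines of myeloma cells, so the arrays do not show which cells held these transcripts. The part of these markers in the LINC differences was not tested.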

How the data were processed

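The authors deposited log2 signals from RMA in Affymetrix Expression Console, per the submitters' processing notes, with versions and settings not given in the sources. The number of arrays limits the precision. Of 33297 transcript clusters, 19460 have 1 platform symbol, and 18417 genes entered the fits (fewer under the signal filter). Differences were fitted with limma 3.58.1 in R 4.3.3 (empirical Bayes with an intensity trend; terms for line, melphalan, their interaction and inhibitors; 3 residual degrees of freedom), with Benjamini-Hochberg adjustment at 0.05 over all genes, and the script was tested on simulated data. Alternatives changed scaling, filter, variance trend, cluster choice and model terms, or left out an array. The named LINC genes are the 8 largest calls in each direction that ran the same way in every matched pair (4 largest differences where under 4 passed), the 8 brightest, those called in both lines and the 5 measured of a list of names, with their nearest protein-coding genes. Clusters with several symbols were not members. The members and lists were chosen with earlier results of these data known. Names and neighbours come from RefSeq on GRCh38.p14; the array annotation's build is not given in the sources. Figures were drawn with matplotlib 3.10.9.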

Additional observations from a re-analysis of the deposited data

Results flagged for a closer look

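The response to melphalan differed between the lines, by limma's interaction term, for 16 LINC genes, each with a smaller or more negative log2 difference in U266/LR7 than in U266/s. The values, U266/LR7 minus U266/s, were −1.95 for LINC00504, −1.62 for LINC01296, −1.59 for LINC00221, −1.23 for LINC00470, −1.06 for LINC00665 and −1.06 for LINC00917. They were −0.87 for LINC01879, −0.80 for LINC00334, −0.78 for LINC00115, −0.78 for LINC01465, −0.78 for LINC01620 and −0.71 for LINC00965. The last 4 were −0.71 for LINC01587, −0.69 for LINC01602, −0.62 for LINC01588 and −0.59 for LINC02198. LINC00504, LINC01296, LINC00221, LINC00470 and LINC00665 were called in every alternative run for them, 14 or 15 each. LINC01588 and LINC01602 were each called in 4 of 14.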

How the results depend on the processing

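No paired analysis was possible by replicate number because each condition has 1 array and the labels carry none; the inhibitor term of the fit already matches the arrays of a state. Restricted to genes above the median signal, 30 LINC genes were tested; 14 were called for melphalan in U266/s, 5 for melphalan in U266/LR7, 10 for the interaction, 13 between the lines without melphalan and 19 with melphalan, since fewer genes were tested. Median centring gave 31 interaction calls, quantile normalization 20 and cyclic loess normalization 12, and the cause was not tested. The additive fit has a single line term for arrays with and without melphalan. Its 49 calls (25 higher, 24 lower) are therefore the same for both line comparisons and are not a count with melphalan. Leaving out 1 array at a time gave 23 to 63 calls for melphalan in U266/s, 1 to 9 in U266/LR7, 6 to 25 for the interaction, 29 to 40 between the lines without melphalan, 36 to 80 with melphalan and 0 to 0 for inhibitors. Where a lone array remained in a state, it was assumed to vary like the others. No named call changed direction. Over all LINC calls, those held in every alternative run were 15 of 56 higher and 1 of 2 lower with melphalan in U266/s, 0 of 5 and 1 of 3 in U266/LR7, 5 of 16 for the interaction, 15 of 30 higher and 3 of 12 lower between the lines without melphalan, and 8 of 22 and 10 of 55 with it. Of the 57 named calls, chosen as the largest, 38 were held. The single line difference of the additive fit was −0.36 for LINC01128 and −0.27 for LINC01296, and neither was called.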
